A study of Mus musculus with 18 samples.

Results

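The serpins are a large family of proteins that share 1 fold, and most of them inactivate serine proteases. Here the family was taken as every gene whose symbol begins with Serpin, a clade letter from a to i and a number. In the mRNA tables of livers and of AML12 hepatocytes, 51 of 18087 gene symbols met this rule. The livers gave values for 48 of them and AML12 hepatocytes for 38, with 35 in both. Changes were computed for the members that averaged at least 1 TPM over the libraries of a table (the share of a gene among all transcripts of a library, corrected for gene length, which lets levels be compared between genes). These were 28 members in the liver and 12 in AML12 hepatocytes, 11 of them the same. The other 20 and 26 members were below that level, and they are given without a test.

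Livers came from male *db*/*db* mice with the genotype B6.Cg-dock7m Leprdb/++/J, a model of obesity and type II diabetes caused by loss of the leptin receptor. Of these mice, 3 were injected intravenously with rMSA, a recombinant mouse serum albumin, at a dose of 1.5 mg per g body weight, and 3 received saline of the same volume. Injections were given 3 times, every 3 weeks, over 9 weeks, and the age of the mice is not given in the sources used here. AML12 hepatocytes are a line from the liver of a mouse that carried a transgene for human transforming growth factor alpha, and the labels call them WT. They were starved of serum overnight and then kept for 24 h with 600 µM rMSA and 10 nM insulin together, with 600 µM rMSA, with 10 nM insulin or with vehicle. Each of these 4 groups had 3 libraries, and neither the labels nor the study's methods say of these libraries that they came from separate cultures, although the methods state in general that experiments were repeated. The p-values for these cells thus reflect the scatter of the samples at hand, which may be technical.

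A serpin works as a bait. Its reactive centre loop, an exposed strand near the end of the chain, is cut by the protease, snaps into the body of the serpin and drags the protease along in a dead complex. The residues of the loop set which protease is trapped. Hepatocytes make most of the serpins of blood plasma, among them antitrypsin (Serpina1), antithrombin (Serpinc1), C1 inhibitor (Serping1) and antiplasmin (Serpinf2). Some members have lost the inhibitory function and carry hormones (Serpina6 and Serpina7) or fold collagen (Serpinh1), and those of clade b mostly stay inside cells. In the mouse the antitrypsin and antichymotrypsin genes have multiplied into clusters of near copies, and 21 of the 48 members in the liver table lie on chromosome 12.

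Depth is unknown for all 18 libraries, since TPM keeps no read counts. In the liver table the leading principal component, with 72.0% of the variance, parted rMSA livers from saline livers. In the AML12 table the insulin libraries stood apart among themselves. Insulin libraries 1 and 2 lay at -35.5 and -84.5 on the first component and insulin library 3 at 17.1, while the other 9 libraries ran from -29.3 to 40.1. Tested genes had a median TPM of 14.6 and 11.2 in insulin libraries 1 and 2, against 16.2 to 22.6 in the other 10. Hepatocyte identity was checked on 12 markers. All 12 were tested in the liver. In AML12 hepatocytes 7 of them averaged at least 1 TPM, Apoa2 and Asgr1 had no value, and Alb stood at 23.6 to 93.9 TPM, against 32790 to 52715 TPM over the 6 livers.

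The copies on chromosome 12 are so alike that their reads are hard to tell apart, so a stretch in which they differ is shown first. The coding sequences of Serpina1a, Serpina1b, Serpina1c, Serpina1d and Serpina1e are each 1239 bases long in GENCODE vM21 (GRCm38). Over the 10 pairs they were 96.3% to 98.5% identical. Of all windows of 100 coding bases, 61.3% of Serpina1a and 61.8% of Serpina1c occurred unchanged in another member, against 28% of Serpina1b, 29.9% of Serpina1d and 19.1% of Serpina1e. The loop is encoded by coding bases 1081 to 1164, printed below 5′ to 3′ on the coding strand, with capitals where the 5 copies do not all hold the same base.
Serpina1a: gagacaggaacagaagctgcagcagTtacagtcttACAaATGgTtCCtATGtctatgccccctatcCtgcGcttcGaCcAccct
Serpina1b: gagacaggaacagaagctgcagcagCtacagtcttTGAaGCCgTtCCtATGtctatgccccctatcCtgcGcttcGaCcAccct
Serpina1c: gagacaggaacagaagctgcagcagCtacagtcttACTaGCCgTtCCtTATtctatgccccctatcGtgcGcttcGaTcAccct
Serpina1d: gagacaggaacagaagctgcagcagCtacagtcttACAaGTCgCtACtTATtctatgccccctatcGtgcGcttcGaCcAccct
Serpina1e: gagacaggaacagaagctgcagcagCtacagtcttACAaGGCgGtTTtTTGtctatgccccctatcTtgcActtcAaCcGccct
The stretches lie on the minus strand at chr12:103853753-103853836, chr12:103728320-103728403, chr12:103895090-103895173, chr12:103763758-103763841 and chr12:103947096-103947179, in the order printed, and each is unbroken in the genome. Of the first 33 bases, which encode the hinge of the loop, 1 differed among the copies. Of the following 51 bases, which encode the part that meets the protease and what follows it, 17 differed. Serpina1b and Serpina1d, the copies that carried most of the antitrypsin mRNA of AML12 hepatocytes, differed at 9 of the 84 bases.

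The antichymotrypsin copies, named in the mouse as Serpina3 with a letter, diverge further in the same stretch. Shown are the 3 copies with the highest levels in the liver, on the plus strand, from the hinge on and without gaps, with capitals where the 3 do not all agree.
Serpina3k: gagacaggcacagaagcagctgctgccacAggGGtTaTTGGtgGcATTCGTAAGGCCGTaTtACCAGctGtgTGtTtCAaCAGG
Serpina3m: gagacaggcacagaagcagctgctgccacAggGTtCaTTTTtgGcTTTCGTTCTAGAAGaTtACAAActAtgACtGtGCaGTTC
Serpina3n: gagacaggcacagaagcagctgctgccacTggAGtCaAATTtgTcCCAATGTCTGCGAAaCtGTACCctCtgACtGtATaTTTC
These stretches lie at chr12:104345263-104345346, chr12:104393763-104393846 and chr12:104413442-104413525. They differed at 2 of the first 33 bases and at 37 of the following 51. Over the whole coding sequence, 8.23% of the 100-base windows of Serpina3k and of Serpina3m occurred unchanged in another member, and 0.0870% of those of Serpina3n. Of the 29 members tested in either table, 10 shared at least 1 such window with another member and 19 shared none.

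The promoters of the 5 Serpina1 copies were compared as well, since 4 of the copies fell together in rMSA livers. Shown for each is the 84-base stretch of the promoter, in RefSeq sequence of GRCm38.p6, that ends 8 bases after the letters GTTAAT, which are in capitals. These letters form 1 arm of the site of HNF1, a transcription factor of hepatocytes.
Serpina1a: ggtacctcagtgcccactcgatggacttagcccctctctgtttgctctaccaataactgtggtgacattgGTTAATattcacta
Serpina1b: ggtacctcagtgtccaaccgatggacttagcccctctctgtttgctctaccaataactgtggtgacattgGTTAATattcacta
Serpina1c: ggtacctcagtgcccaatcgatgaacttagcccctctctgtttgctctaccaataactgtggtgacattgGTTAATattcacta
Serpina1d: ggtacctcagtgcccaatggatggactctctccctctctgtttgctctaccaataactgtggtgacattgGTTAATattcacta
Serpina1e: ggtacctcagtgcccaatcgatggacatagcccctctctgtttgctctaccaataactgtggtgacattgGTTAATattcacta
The stretches lie on the minus strand at chr12:103863627-103863710, chr12:103738202-103738285, chr12:103904964-103905047, chr12:103773636-103773719 and chr12:103956962-103957045, in that order. Of the 84 positions, 74 held the same base in all 5. The letters began 16 to 27 bases before the annotated start in 4 copies and 78 bases before it in Serpina1e. On either strand and within 250 bases before a start, GTTAAT occurred for 7 of the 21 members tested in the liver that have a promoter in the table (the 5 Serpina1 copies, Serpina7 and Serpinb8). It occurred for 5.36% of the tested liver genes with a promoter. The letters TTCNNNGAA, the core bound by STAT factors, were searched apart from GTTAAT, overlaps included. They occurred for 4 of the 21 members (Serpina11, Serpina3f, Serpina3g and Serpinb6a) and for 7.10% of the tested liver genes. A match is a description of these letters and not a binding site.

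In the livers the question was which serpin mRNAs differed between rMSA-treated and saline-treated *db*/*db* mice. Plasma serpins of high level were mostly lower in rMSA livers, and a small set of low members was higher. Of the 28 tested members 8 rose and 12 fell, and the other 8 were not called (limma on log2(TPM + 1), Benjamini-Hochberg adjusted p under 0.05 over all 11398 tested genes). That is 28.6% and 42.9% of the members, where 21.8% of all tested genes rose and 8.38% fell. The median log2 fold change (log2FC, on the TPM + 1 scale, which understates changes of low genes) was -0.09 over the members and 0.12 over all tested genes. After median centring of the libraries, 8 members rose and 13 fell, where 14.4% of all genes rose and 13.1% fell. With quantile normalization 9 members rose and 13 fell, where 15.6% and 14.7% of all genes did. These scalings moved the median of all genes by -0.14 and -0.15. Members of the family together took 3.61%, 3.29% and 3.14% of all TPM in rMSA livers, against 5.95%, 6.12% and 6.57% in saline livers, and the groups did not overlap. With all members left out before rescaling, an alternative chosen after seeing the data, the counts were again 8 and 12. There 2212 of 11395 tested genes rose and 1059 fell, 28.7% in all. In whole tissue, fewer cells of a type and less RNA per cell cannot be told apart.

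**Figure D1:**
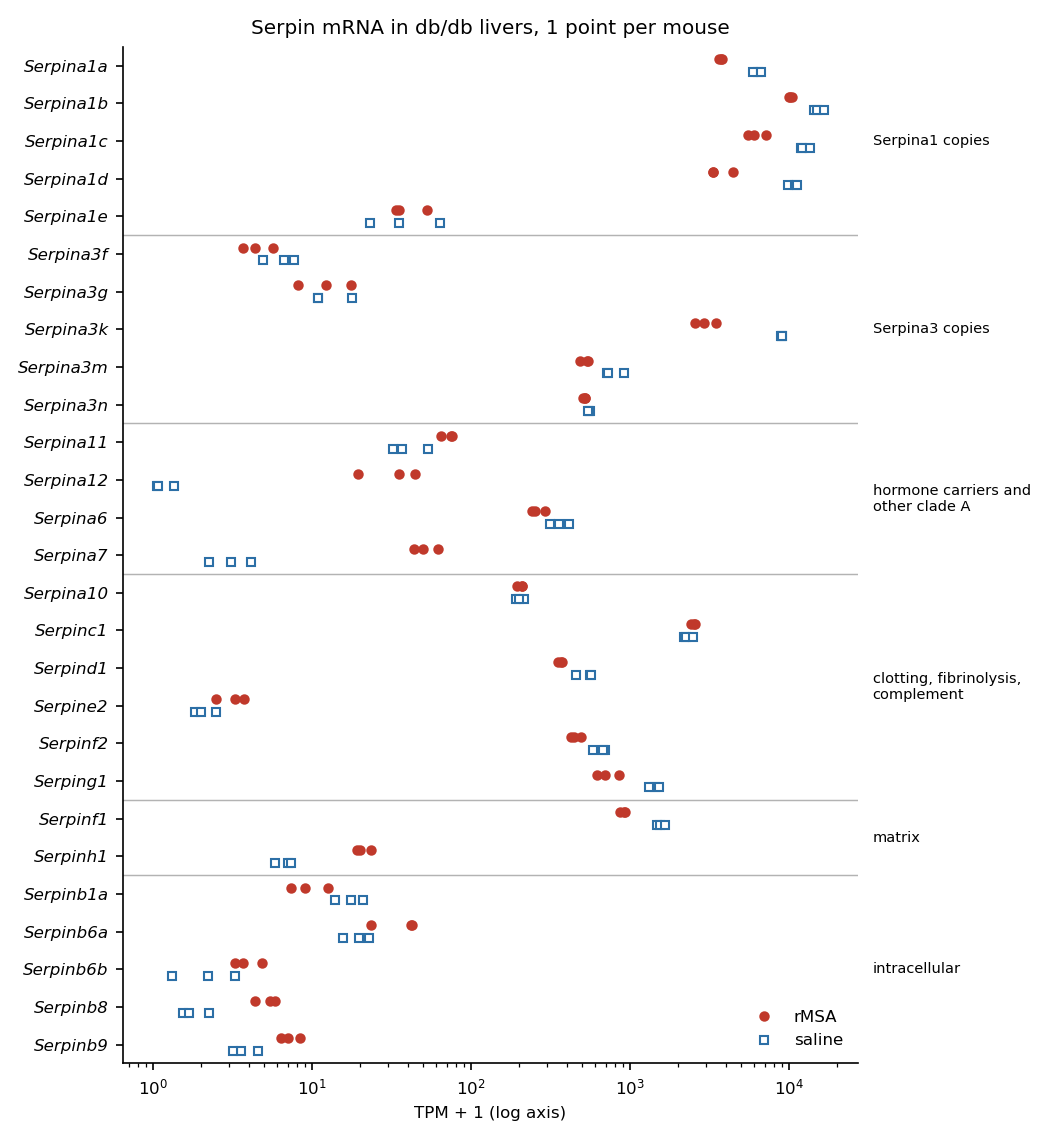
TPM + 1 (log axis) of 27 tested members in 6 db/db livers, 1 point per mouse, with rMSA livers as filled circles above saline livers as open squares and the members grouped by role. All rMSA livers lie left of all saline livers for Serpina1a to Serpina1d, Serpina3k and Serping1, and right of them for Serpina12, Serpina7 and Serpinh1.

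Antitrypsin, the main inhibitor of neutrophil elastase in plasma, is encoded by the Serpina1 copies, and 4 of the 5 fell in rMSA livers. The copies differ in the loop, and which protease each of them inhibits was not tested. Serpina1b (gene 20701), the highest member of the family in every liver, had 10364, 10117 and 9920 TPM in rMSA livers, against 14346, 14870 and 16644 TPM in saline livers. Its log2FC was -0.59 (SE 0.13, limma adjusted p = 0.0117). In limma this call was lost without a filter on low genes (adjusted p = 0.0876). Serpina1d (gene 20703) had 4421, 3321 and 3318 TPM in rMSA livers, against 9868, 10812 and 11224 TPM in saline livers, a log2FC of -1.54 (SE 0.15, limma adjusted p = 2.21e-04). Every rMSA liver was below every saline liver for both copies, and Serpina1d fell further.

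Serpina1c (gene 20702) averaged 6246 ± 836 TPM in rMSA livers and 12482 ± 915 TPM in saline livers (SD, n = 3 each), a log2FC of -1.005 (limma adjusted p = 0.00154). Serpina1a (gene 20700) averaged 3707 ± 89.99 TPM in rMSA livers and 6293 ± 387 TPM in saline livers, a log2FC of -0.76 (limma adjusted p = 0.00178). Serpina1e (gene 20704), was a minor copy at 32.8, 51.4 and 34.2 TPM in rMSA livers and 62.2, 22.0 and 34.3 TPM in saline livers, and these overlapped. The 95% interval of its log2FC ran from -0.68 to 0.87. When the TPM of the 5 copies were summed, which sets aside how counted reads were divided among them, the sum had a log2FC of -0.91 (SE 0.16, limma adjusted p = 0.00383). The sum does not bring back any shared reads that were left uncounted.

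The share of each copy in the antitrypsin mRNA was compared as well, in a design too small to pass the threshold. Serpina1d made up 17.2%, 14.3% and 14.8% of the summed copies in rMSA livers, against 23.3%, 24.7% and 23.3% in saline livers. Serpina1b made up 40.2% to 44.2% in rMSA livers and 33.8% to 34.6% in saline livers. For both copies the groups did not overlap, and the exact permutation test (two-sided, n = 3 each) gave p = 0.1, the smallest it allows, or 0.225 adjusted over 9 share comparisons. Serpina1c held 26.2% on average in rMSA livers and 27.9% in saline livers, and Serpina1a 15.6% and 14.1% (p = 0.2 for each in the exact permutation test).

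**Figure D2:**
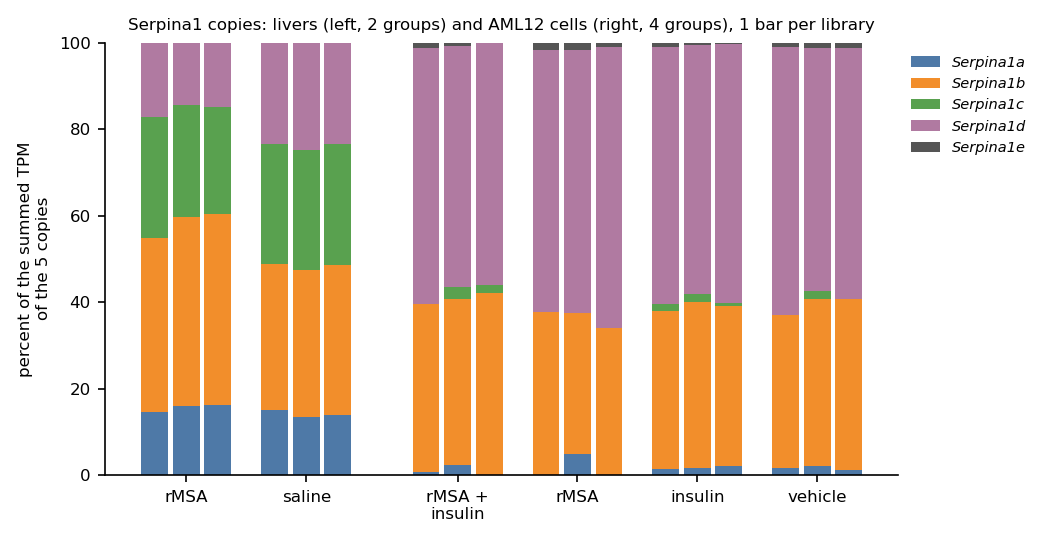
Percent of the summed TPM of the 5 Serpina1 copies held by each copy, 1 bar per library, for livers (rMSA, saline) and AML12 hepatocytes (rMSA + insulin, rMSA, insulin, vehicle). Livers hold Serpina1a to Serpina1d, with less Serpina1d in the 3 rMSA livers (14.3% to 17.2%) than in the 3 saline livers (23.3% to 24.7%), whereas AML12 hepatocytes hold mostly Serpina1d and Serpina1b.

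Among the antichymotrypsin copies the most abundant fell the most. Serpina3k (gene 20714), known in rodents as kallikrein-binding protein, had 3436, 2896 and 2545 TPM in rMSA livers, against 8910, 8950 and 8942 TPM in saline livers. The saline livers were close together and all far above the rMSA livers. The log2FC was -1.60 (SE 0.14, limma adjusted p = 1.18e-04). Serpina3m (gene 20717) averaged 520 ± 32.4 TPM in rMSA livers and 785 ± 112 TPM in saline livers (SD, n = 3 each), a log2FC of -0.59 (limma adjusted p = 0.00832). Serpina3n (gene 20716), an inhibitor known for its induction in the acute phase response and in reactive astrocytes, had 520.1, 521 and 502 TPM in rMSA livers, against 546, 561 and 543 TPM in saline livers. These values did not overlap but lay close, with a log2FC of -0.10 (95% interval -0.29 to 0.10, limma adjusted p = 0.451). Serpina3f and Serpina3g, at 2.69 to 16.8 TPM, did not pass either, but Serpina3f passed as lower after median centring or quantile normalization (limma adjusted p of 0.0361 and 0.0307). The other 5 Serpina3 members in the table were under 1 TPM. The summed Serpina3 copies had a log2FC of -1.36 (SE 0.13, limma adjusted p = 1.74e-04).

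The largest changes of the family were rises of hormone carriers and other clade a members. Serpina12 (gene 68054, chr12:104028769-104044443), which encodes vaspin, a serpin first described in visceral fat of obese rats, had 18.4, 43.3 and 34.0 TPM in rMSA livers, against 0.05, 0.07 and 0.35 TPM in saline livers. It was at the edge of detection in saline livers and a clear signal in each rMSA liver, with a log2FC of 4.76 (SE 0.29, limma adjusted p = 2.46e-05). Its saline mean of 0.157 TPM was below the minimum of 1 TPM, so it came into the test only through the rMSA livers. The size depends on the amount added before the log, and it lay between 2.78 and 7.06 over the settings tried. Serpina7 (gene 331535, chrX:139079249-139085236), which encodes thyroxine-binding globulin, the plasma carrier of thyroid hormone, had 49.1, 42.8 and 61.0 TPM in rMSA livers. In saline livers it had 3.11, 2.08 and 1.25 TPM, so that the log2FC was 4.07 (SE 0.23, limma adjusted p = 1.77e-05). Both genes passed in every setting tried.

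Corticosteroid-binding globulin, the carrier of glucocorticoids, was lower. Its gene Serpina6 (gene 12401) had 292, 242 and 249 TPM in rMSA livers, against 354, 409 and 314 TPM in saline livers, a log2FC of -0.45 (SE 0.13, limma adjusted p = 0.0278). The groups did not overlap, but the call was lost without saline liver 1 or 2 or without rMSA liver 2 or 3 (limma adjusted p of 0.0645 to 0.101). Serpina11 (gene 380780) averaged 70.4 ± 5.69 TPM in rMSA livers and 39.7 ± 10.98 TPM in saline livers (SD, n = 3 each), a log2FC of 0.84 (limma adjusted p = 0.00911). In all, 3 of the 4 tested members of this group rose and 1 fell.

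Of the 7 tested serpins of clotting, fibrinolysis and complement, 3 fell. Serping1 (gene 12258), whose product C1 inhibitor blocks the first proteases of complement and plasma kallikrein, had 848, 688 and 621 TPM in rMSA livers, against 1422, 1316 and 1512 TPM in saline livers. Its log2FC was -0.99 (SE 0.13, limma adjusted p = 0.00109), and no rMSA liver reached a saline liver. Serpind1 (heparin cofactor II, an inhibitor of thrombin) averaged 362 ± 12.0 TPM in rMSA livers and 527 ± 60.1 TPM in saline livers (SD, n = 3 each), a log2FC of -0.54 (limma adjusted p = 0.00756). Serpinf2 (antiplasmin) averaged 452 ± 31.8 TPM in rMSA livers and 647 ± 55.95 TPM in saline livers, a log2FC of -0.51 (limma adjusted p = 0.00803).

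Antithrombin mRNA was not called. Serpinc1 (gene 11905), the highest member outside the Serpina1 and Serpina3 copies, had 2564, 2533 and 2406 TPM in rMSA livers, against 2191, 2240 and 2492 TPM in saline livers. The groups overlapped, and the log2FC was 0.12 (95% interval -0.13 to 0.36, limma adjusted p = 0.457). With quantile normalization Serpinc1 passed in limma as higher (0.37, adjusted p = 0.0261). Serpina10, the inhibitor of factor Xa that depends on protein Z, had a log2FC of 0.01 (95% interval -0.20 to 0.22). Serpine2, which encodes protease nexin 1, an inhibitor of thrombin and urokinase, averaged 2.17 ± 0.629 TPM in rMSA livers and 1.1 ± 0.341 TPM in saline livers (SD, n = 3 each, limma adjusted p = 0.0615). Serpine2 passed in limma with array weights (adjusted p = 0.0493) or without rMSA liver 1 (adjusted p = 0.035).

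Of the matrix serpins, Serpinh1 rose and Serpinf1 fell. Serpinh1 (gene 12406, chr7:99345375-99353239), which encodes HSP47, a chaperone of the endoplasmic reticulum that folds procollagen, had 18.2, 22.3 and 18.9 TPM in rMSA livers, against 6.03, 4.83 and 6.34 TPM in saline livers. The groups lay far apart, with a log2FC of 1.63 (SE 0.15, limma adjusted p = 1.33e-04). Of its collagen clients, Col3a1 and Col1a1 averaged 33.8 ± 5.26 and 18.7 ± 2.94 TPM in rMSA livers and 6.33 ± 1.24 and 4.22 ± 0.624 TPM in saline livers (SD, n = 3 each). Their log2FC values were 2.25 and 1.91 (limma adjusted p of 5.93e-05 and 9.65e-05). Stellate cell and fibroblast markers moved with Serpinh1. Of 8 such genes 6 rose and 0 fell, their summed level was 241 to 325 TPM in rMSA livers and 111 to 233 TPM in saline livers, and none was at 0 throughout. Markers of cholangiocytes (3 of 5 tested rose, 0 fell) summed to 77.0 to 167 TPM in rMSA livers and 22.5 to 38.3 TPM in saline livers, and those of megakaryocytes and platelets (1 of 2 tested rose, 0 fell) to 10.2 to 10.7 TPM in rMSA livers and 3.67 to 4.89 TPM in saline livers. Of 7 Kupffer cell and macrophage markers 1 rose and 1 fell. They summed to 278 to 418 TPM in rMSA livers and 278 to 468 TPM in saline livers. Endothelial cell markers (1 of 7 rose, 0 fell) summed to 159 to 162 TPM in rMSA livers and 116 to 165 TPM in saline livers. For both lists the groups overlapped. The part of these cell types in the rise of Serpinh1 and of the other members was not tested. Serpinf1 (gene 20317), which encodes pigment epithelium-derived factor, a secreted non-inhibitory serpin that restrains blood vessel growth, averaged 901 ± 38.1 TPM in rMSA livers and 1552 ± 86.6 TPM in saline livers (SD, n = 3 each). Its log2FC was -0.78 (limma adjusted p = 7.88e-04).

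The intracellular members of clade b were low in the liver, and 3 of the 5 tested rose while 1 fell. Serpinb8 had 4.87, 3.35 and 4.42 TPM in rMSA livers, against 1.26, 0.54 and 0.68 TPM in saline livers, a log2FC of 1.52 (SE 0.20, limma adjusted p = 9.35e-04). Its saline mean of 0.827 TPM was below the minimum of 1 TPM, which it met through the rMSA livers. Serpinb9, the inhibitor of granzyme B that shields cells from killer lymphocytes, averaged 6.28 ± 1.05 TPM in rMSA livers and 2.76 ± 0.691 TPM in saline livers (SD, n = 3 each), a log2FC of 0.96 (limma adjusted p = 0.00567). Serpinb6a had 22.4, 40.9 and 41.5 TPM in rMSA livers, against 21.7, 18.8 and 14.7 TPM in saline livers (log2FC 0.86, limma adjusted p = 0.0304). The first rMSA liver lay close to the saline livers, and the call was lost without saline liver 2 or 3 or without rMSA liver 2 or 3 (limma adjusted p of 0.0602 to 0.107). Serpinb6b did not pass, with 2.25, 2.65 and 3.82 TPM in rMSA livers and 2.26, 1.2 and 0.31 TPM in saline livers (limma adjusted p = 0.0744), but passed without saline liver 1 (0.0197). Serpinb1a, an inhibitor of neutrophil elastase, averaged 8.64 ± 2.73 TPM in rMSA livers and 16.4 ± 3.46 TPM in saline livers (SD, n = 3 each, log2FC -0.87, limma adjusted p = 0.0218). That call was lost without saline liver 1 or 2 or without rMSA liver 2 or 3 (limma adjusted p of 0.0569 to 0.0811). Markers of neutrophils and lymphocytes, cells that also make clade b serpins, summed to 25.7 to 29.0 TPM in rMSA livers and 13.6 to 25.6 TPM in saline livers, and of 7 tested 3 rose and 1 fell. Their part in these results was not tested.

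**Figure D3:**
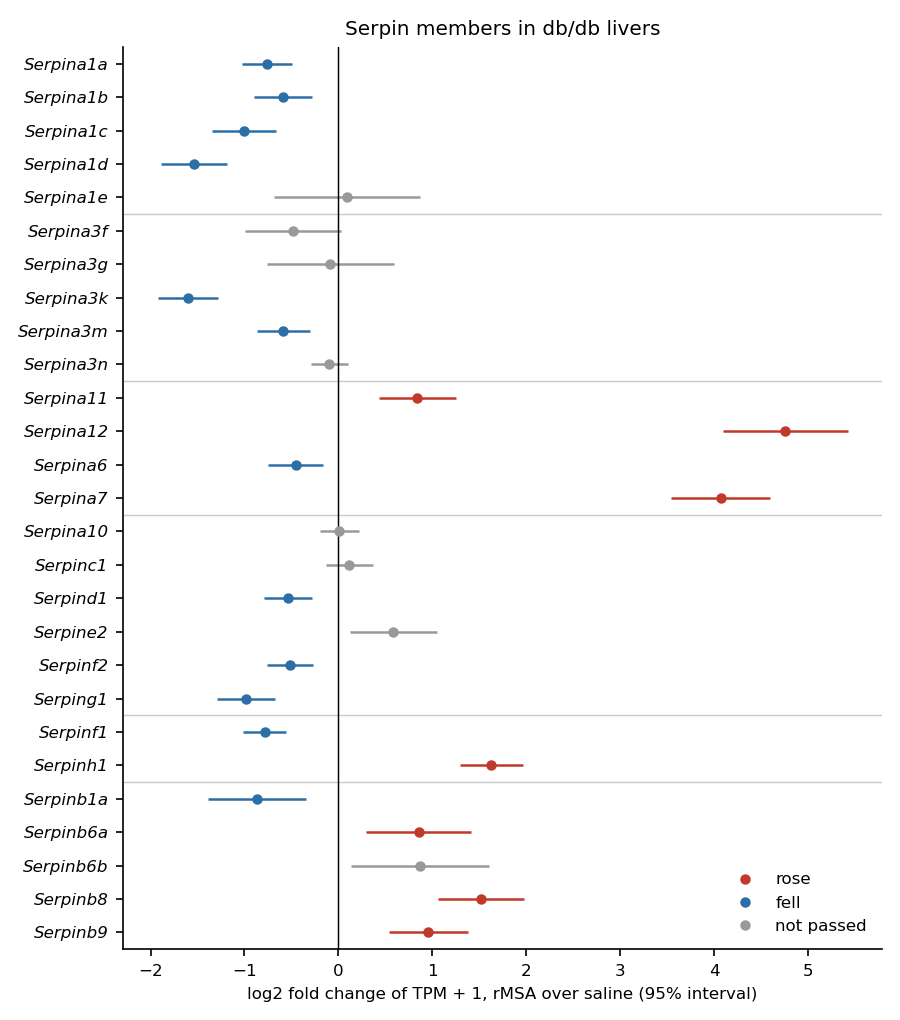
log2FC of TPM + 1, rMSA over saline, with its 95% interval for 27 tested members in db/db livers, in the order of roles of the plot of levels. Red marks the 7 plotted members that rose, blue the 12 that fell and grey the 8 that did not pass; the rises of Serpina12 (4.76) and Serpina7 (4.07) are the largest changes.

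The liver members below the minimum of 1 TPM lay at or under a mean of 0.483 TPM, and none of the 20 reached 1 TPM in any liver. They include Serpina5, the protein C inhibitor, with 0.73, 0.97 and 0.38 TPM in rMSA livers and 0.22, 0.17 and 0.35 TPM in saline livers. Serpini1 (neuroserpin) had 0.15 to 0.42 TPM in rMSA livers and 0.11 to 0.15 TPM in saline livers. Serpinb12 was listed at 0 in all 6 livers. In the main fit no test was run on these values, and only the alternative without a filter on low genes held those above 0.

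The proteases, cofactors and other inhibitors around the family were examined as lists. Among 21 tested protease targets of serpins 6 rose and 4 fell in rMSA livers, with a median log2FC of -0.02. C1s1, a complement protease that C1 inhibitor inactivates, averaged 254 ± 19.2 TPM in rMSA livers and 67.2 ± 13.5 TPM in saline livers (SD, n = 3 each, log2FC 1.92, limma adjusted p = 6.33e-05). Prss8, the protease prostasin, averaged 58.4 ± 15.3 TPM in rMSA livers and 3.69 ± 1.91 TPM in saline livers (SD, n = 3 each, log2FC 3.71, limma adjusted p = 8.02e-05). F7, the clotting factor VII, fell to 40.7 ± 9.63 TPM in rMSA livers, against 92.1 ± 11.5 TPM in saline livers (limma adjusted p = 0.00147).

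Of 17 tested cofactors, receptors and clients 7 rose and 5 fell. Dio1, the deiodinase that activates the thyroid hormone carried by thyroxine-binding globulin, averaged 148 ± 10.1 TPM in rMSA livers and 20.1 ± 3.81 TPM in saline livers (SD, n = 3 each, log2FC 2.83, limma adjusted p = 9.82e-06). Of 21 tested plasma protease inhibitors outside the symbol rule, 5 rose and 9 fell, with a median log2FC of -0.20. Agt, whose product angiotensinogen has the serpin fold although its symbol does not show it, averaged 803 ± 24.2 TPM in rMSA livers and 1761 ± 136 TPM in saline livers (SD, n = 3 each, log2FC -1.13, limma adjusted p = 1.40e-04). Itih3 and Hrg, other plasma proteins of hepatocytes, had log2FC values of -1.13 and -1.27 (limma adjusted p of 1.23e-04 and 1.27e-04). Among hepatocyte markers 2 of 12 rose and 4 fell, Hnf4a among those that fell (log2FC -1.12, limma adjusted p = 2.96e-04). The median log2FC of the 12 was 0.20. The summed hepatocyte markers stood at 115458 to 119942 TPM in rMSA livers, against 94261 to 105612 TPM in saline livers.

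In AML12 hepatocytes the question was whether rMSA changed serpin mRNAs with and without insulin. The family looked different in these cells from the start, and the values are set side by side without a test, since the tables were normalized apart. The highest member was Serpinb6a, an inhibitor kept in the cytosol, in all 12 libraries, where the liver had Serpina1b. All members together took 0.0774% to 0.128% of the TPM. Members with a mean of 100 TPM or more numbered 3, Serpinb6a and Serpinh1 among them, against 14 in the liver. Antithrombin mRNA (Serpinc1) was at 0 to 0.29 TPM and Serpina3n at 0 to 0.18 TPM. Of the antitrypsin copies, Serpina1d and Serpina1b made up 55.6% to 65.0% and 32.5% to 42.1% of the sum, and Serpina1a, Serpina1c and Serpina1e did not exceed 2.42 TPM.

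Without insulin in the medium, Serpine2 rose with rMSA and the antitrypsin copies Serpina1b and Serpina1d fell. Of 12 tested members 2 rose and 2 fell, where 5.9% of the 10826 tested genes rose and 1.89% fell. The median log2FC was 0.08 over the members and 0.06 over all genes. Serpine2 had 158, 153 and 130 TPM with rMSA, against 58.4, 57.8 and 43.3 TPM with vehicle, a log2FC of 1.46 (SE 0.37, limma adjusted p = 0.0343). The groups did not overlap, but the call of Serpine2 was lost when any 1 of the 6 rMSA and vehicle libraries was left out (log2FC 1.32 to 1.54, limma adjusted p of 0.0784 to 0.139).

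The antitrypsin copies fell in the same cells. Serpina1b had 8.35, 4.46 and 7.83 TPM with rMSA, against 29.2, 22.5 and 31.1 TPM with vehicle, a log2FC of -1.89 (SE 0.23, limma adjusted p = 5.49e-04). Serpina1d had 13.4, 8.33 and 15.0 TPM with rMSA, against 51.2, 32.8 and 45.6 TPM with vehicle, a log2FC of -1.75 (SE 0.25, limma adjusted p = 0.00148). The second library was lowest in both groups for both copies. The sum of the 5 copies had a log2FC of -1.86 (SE 0.23, limma adjusted p = 5.36e-04). Serpina1d held 62.1% of the sum on average with rMSA and 58.8% with vehicle (p = 0.3, exact permutation test, n = 3 each).

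With insulin in the medium of both groups, 3 of the 12 members rose and 2 fell with rMSA, where 14.5% of all tested genes rose and 2.73% fell. The median log2FC was 0.23 over the members and 0.21 over all genes, and median centring moved the median of all genes by -0.26. After it 2 members rose and 4 fell, where 6.53% and 6.84% of all genes did. Serpina1b had 13.2, 7.83 and 10.8 TPM with rMSA + insulin, against 44.6, 38.2 and 44.1 TPM with insulin (log2FC -1.92, SE 0.23, limma adjusted p = 3.15e-04). Serpina1d had 20.1, 11.3 and 14.4 TPM with rMSA + insulin, against 72.0, 57.2 and 71.2 TPM with insulin (log2FC -2.09, SE 0.25, limma adjusted p = 3.24e-04). In both copies every rMSA + insulin library lay below every insulin library, insulin library 3 included.

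The calls of Serpine2 and Serpinb6a in this comparison depended on single libraries. Serpine2 had 102, 79.5 and 124 TPM with rMSA + insulin, against 30.5, 17.9 and 66.9 TPM with insulin (log2FC 1.56, SE 0.37, limma adjusted p = 0.0148). Insulin library 3 was far above the other insulin libraries. Without insulin libraries 1 and 2 the log2FC of Serpine2 was 0.57 (limma adjusted p = 0.0788), where the lone insulin library is assumed to vary like the other groups. Its call was also lost without insulin library 1 or rMSA + insulin library 1 or 3 (limma adjusted p of 0.0529 to 0.0679) and when the fit held the compared groups alone (0.139). Serpinb6a had 570.0, 593.3 and 592.7 TPM with rMSA + insulin, against 506, 480 and 507 TPM with insulin, a log2FC of 0.23 (SE 0.06, limma adjusted p = 0.0225). After median centring it was -0.022, so its direction depends on the scaling, and the call was also lost without any 1 of the rMSA + insulin libraries (limma adjusted p of 0.0543 to 0.0897). In the absence of insulin, Serpinb6a had 559, 571 and 557 TPM with rMSA, against 509, 481 and 537 TPM with vehicle (log2FC 0.14, limma adjusted p = 0.210). Over the whole family, the count of members called was 8 without insulin library 3, where 53.9% of all tested genes were called, and 3 without rMSA + insulin library 1, where 9.79% were.

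**Figure D4:**
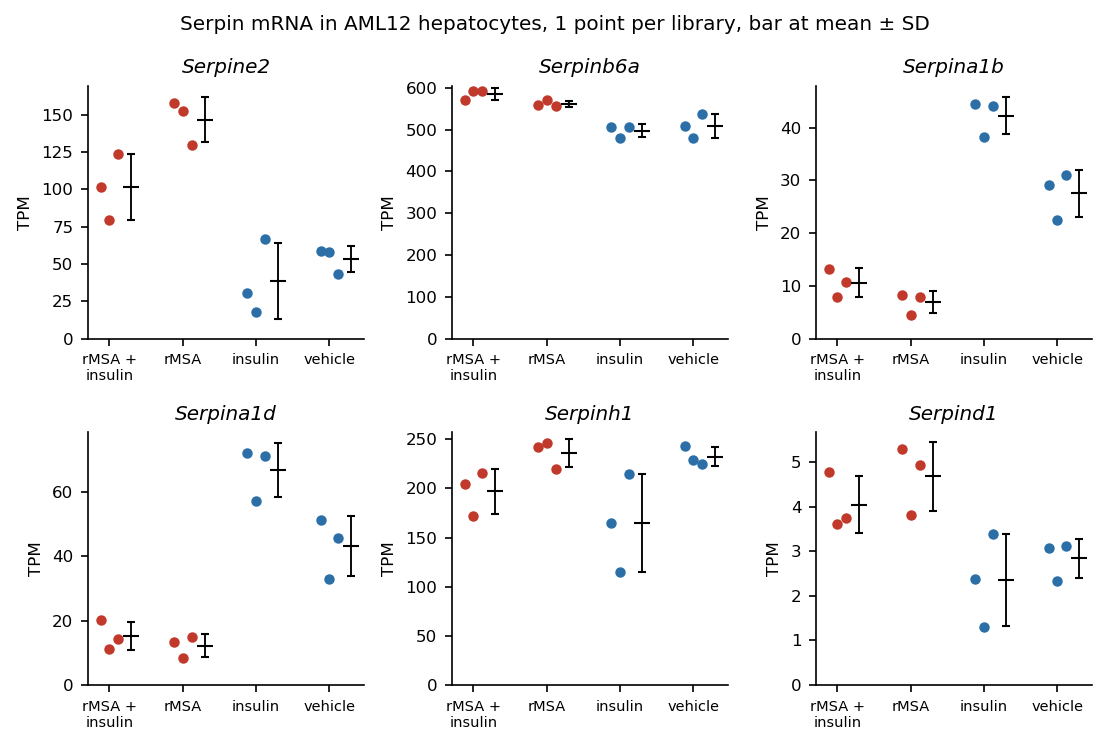
TPM of 6 members in AML12 hepatocytes with rMSA + insulin, rMSA, insulin or vehicle, 1 point per library, with the mean and SD of 3 libraries beside them and red for the groups with rMSA. Serpina1b lies between 4.46 and 13.2 TPM in the 6 libraries with rMSA and between 22.5 and 44.6 TPM in the 6 without, and Serpina1d likewise lies lower with rMSA than without.

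Most members of the cytosol and the matrix did not pass with rMSA. Serpinh1, which rose in rMSA livers, had 242, 246 and 220 TPM with rMSA, against 243, 229 and 225 TPM with vehicle. The groups overlapped, and the 95% interval of the log2FC ran from -0.38 to 0.42. No stellate cell marker averaged 1 TPM in AML12 hepatocytes, Lrat and Pdgfrb had no value, and the others summed to 0.93 to 1.46 TPM with rMSA and 0.32 to 0.37 TPM with vehicle. Serpind1 had 5.30, 3.82 and 4.94 TPM with rMSA, against 3.07, 2.34 and 3.13 TPM with vehicle (log2FC 0.56, limma adjusted p = 0.178), and it passed with only these groups in the fit (0.0182) or without insulin libraries 1 and 2 (0.0179). Serpinb6b, Serpinb8, Serpinb9, Serpinb9b and Serpinf1 had log2FC values of -0.19, -0.31, 0.31, -0.26 and 0.37 for rMSA against vehicle. For rMSA + insulin against insulin these were -0.21, -0.64, 0.67, -0.13 and 0.22, and none passed (limma adjusted p = 0.0570 for Serpinb8). Serpinb6b and Serpinb8 passed as lower after median centring (0.0111 and 0.00162) and quantile normalization (0.0463 and 0.00138). Serpinb9 passed as higher without insulin library 3 (0.00498). Over the settings tried, its log2FC in this comparison ran from -0.22 to 1.12, so its direction depended on the setting.

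**Figure D5:**
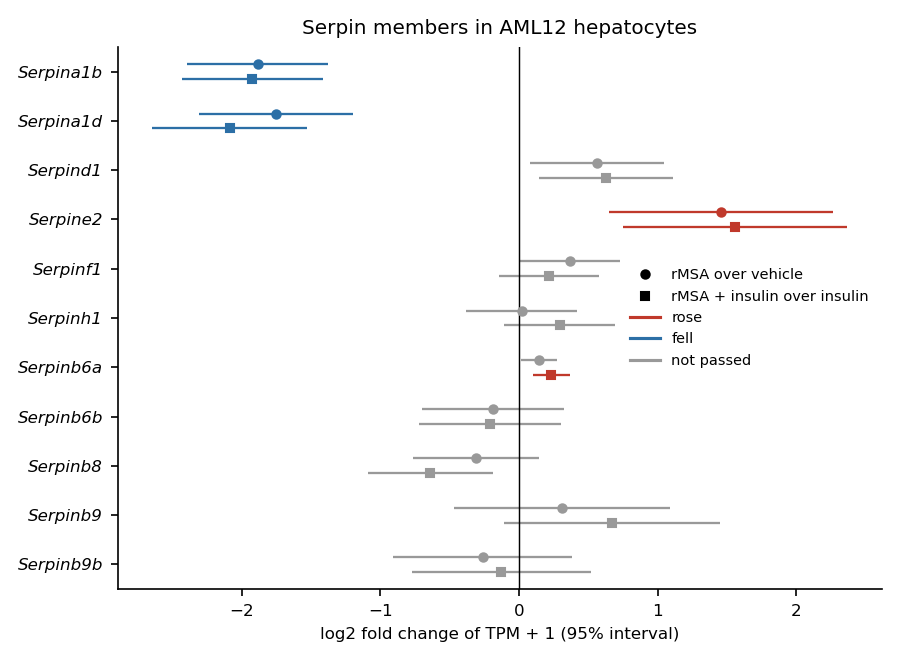
log2FC of TPM + 1 with its 95% interval for 11 tested members in AML12 hepatocytes, for rMSA over vehicle (circles) and rMSA + insulin over insulin (squares), with red for members that rose, blue for those that fell and grey for those that did not pass. Serpine2 (1.46 and 1.56) lies to the right and Serpina1b (-1.89 and -1.92) and Serpina1d (-1.75 and -2.09) to the left in both comparisons.

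Insulin itself was compared in both settings. For insulin against vehicle, limma called 0 of the 12 members, where 0% of all tested genes rose and 0% fell, and 6 of the 12 had an unadjusted p under 0.05, as did 36.7% of all tested genes. Without insulin library 3 limma called 7 members, 1 higher and 6 lower, and 68.4% of all tested genes. With array weights it called 8 members and 74.5% of all tested genes. Serpina1b had 44.6, 38.2 and 44.1 TPM with insulin, against 29.2, 22.5 and 31.1 TPM with vehicle, and every insulin library lay above every vehicle library. Its log2FC of 0.61 (SE 0.23) had a limma adjusted p of 0.135. Serpina1d had 72.0, 57.2 and 71.2 TPM with insulin, against 51.2, 32.8 and 45.6 TPM with vehicle (log2FC 0.63, limma adjusted p = 0.135). The sum of the copies had a log2FC of 0.64 (limma adjusted p = 0.135).

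For rMSA + insulin against rMSA, limma again called 0 of the 12 members, where 2.95% of all tested genes rose and 1.1% fell, and 4 members had an unadjusted p under 0.05, as did 26.9% of all tested genes. With only these groups in the fit it called 5 members, all lower, and 42.7% of all tested genes. Without insulin libraries 1 and 2, which are in neither group but enter the shared spread, it called 6 members and 51.3% of all tested genes. Serpinb8 had 1.07, 0.85 and 1.92 TPM with rMSA + insulin, against 2.58, 2.45 and 2.49 TPM with rMSA (log2FC -0.65, limma adjusted p = 0.0992). The interaction, which asks whether rMSA acts differently when insulin is present, was called for 0 of the 12 members (none at an unadjusted p under 0.05, against 6.45% of all tested genes) and for 0.0369% of all tested genes. For Serpina1d it was -0.34 (95% interval -1.12 to 0.45). The comparisons of AML12 hepatocytes share libraries, so their values are not independent of each other.

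Of the 26 AML12 members that averaged under 1 TPM, 19 stayed below it in every library. The 26 were tested only in the alternative without a filter on low genes. Serpina7, which rose in rMSA livers, had 0.7, 0.41 and 1.09 TPM with rMSA + insulin, against 0.12, 0.04 and 0.18 TPM with insulin. It had 0.53, 0.54 and 0.78 TPM with rMSA, against 0.2, 0.07 and 0.09 TPM with vehicle. All 6 libraries with rMSA were above all 6 without it, at a level near the edge of detection. Serping1 had 0.23 to 0.49 TPM with rMSA + insulin, against 0 to 0.05 TPM with insulin, and 0.28 to 0.41 TPM with rMSA, against 0 to 0.09 TPM with vehicle. Serpina10 had 0.17 to 0.45 TPM with rMSA + insulin, against 0.48 to 1.67 TPM with insulin, and 0.17 to 0.42 TPM with rMSA, against 1.26 to 1.79 TPM with vehicle. Serpina12 did not exceed 0.09 TPM in any AML12 library. Of the 14 intracellular members with a value, 9 were in this low group, and Serpinb9g reached the highest single value among those 9, at 1.48 TPM.

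The lists around the family gave these counts in AML12 hepatocytes. Of 9 tested protease targets 2 rose and 0 fell with rMSA in the absence of insulin, and 2 rose and 0 fell in its presence. Ctsl, the lysosomal protease cathepsin L, averaged 803 ± 31.6 TPM with rMSA and 504 ± 7.84 TPM with vehicle (SD, n = 3 each, log2FC 0.67, limma adjusted p = 0.0349). Plat, a protease that activates plasminogen, averaged 40.9 ± 5.10 TPM with rMSA and 18.1 ± 1.75 TPM with vehicle (SD, n = 3 each), and its log2FC of 1.13 did not pass (limma adjusted p = 0.180). Agt averaged 0.773 ± 0.289 TPM with rMSA and 6.76 ± 1.73 TPM with vehicle (SD, n = 3 each, log2FC -2.12, limma adjusted p = 5.51e-04). Its mean with rMSA was below the minimum of 1 TPM, which it met through the other groups. For rMSA + insulin against insulin the log2FC of Agt was -2.88 (limma adjusted p = 4.84e-05). Itih2, a plasma protease inhibitor, fell by 1.36 and 1.18 on the log2 scale in these comparisons (limma adjusted p of 4.17e-04 and 6.89e-04). Of the hepatocyte markers 2 of 7 rose and 1 fell in each, and Ttr was the gene that fell (-1.73 and -1.29). The median log2FC of these 7 markers was 0.15 and 0.16. Of 10 neutrophil and lymphocyte markers S100a8 alone was tested, and it averaged 64.3 ± 7.85 TPM with rMSA and 16.5 ± 0.909 TPM with vehicle (SD, n = 3 each, log2FC 1.89, limma adjusted p = 3.19e-05).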

How the data were processed

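The mRNA of 6 *db*/*db* livers and 12 AML12 libraries was sequenced by the authors. The authors deposited TPM values per gene in 2 tables, and the submitters' processing notes name Trimmomatic 0.33, STAR 2.5.2b, featureCounts, Subread 1.6.0 and GRCm38. For annotation release and strand setting: not given in the sources used here. Reads of near copies and of overlapping genes may therefore be divided wrongly. TPM keeps no depth, so no count test, interval of a count or floor was computed, and the study's own count-based test could not be repeated. The 95% intervals printed for log2FC values come from the limma fits.

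Genes that averaged 1 TPM or more in a table were tested on log2(TPM + 1) with limma 3.58.1 in R 4.3.3 (intensity trend, two-sided, Benjamini-Hochberg over all tested genes, threshold 0.05). Livers and AML12 hepatocytes were fitted apart, the 4 AML12 groups in 1 fit. Per comparison, members past the threshold, up to 10 by size of change, and the 3 of highest level were described, and of each related list at most 4 genes of smallest p. Shares of copies were compared by exact permutation tests. Sequences came from GENCODE vM21 and RefSeq GRCm38.p6. RefSeq positions matched 16433 of 16533 liver genes and 15531 of 15579 AML12 genes. The statistics were tested on simulated data. The members and lists were chosen with earlier results of these data known.

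Deviations from the group means correlated between same-numbered libraries at 0.53, 0.14 and 0.58 for rMSA and vehicle. For rMSA + insulin and insulin these correlations were 0.095, 0.79 and 0.80. The labels do not state a pairing, so the main fits were unpaired. Replicate numbers entered only as an alternative, the replicate block. Alternatives were other amounts added, filters, scalings, array weights, a fold threshold, a replicate block, smaller fits, summed copies and single libraries left out. Values of 1 tested member are not reported here, although it is in the counts.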

Additional observations from a re-analysis of the deposited data

Results flagged for a closer look

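Serpinb8 and Serpind1 lay on opposite sides of their controls in rMSA livers and in AML12 hepatocytes with rMSA, without overlap of the libraries. The difference between liver and cells was not tested, since the tables were normalized apart. Serpinb8 had a log2FC of 1.52 for rMSA livers over saline livers and of -0.31 for rMSA over vehicle in AML12 hepatocytes. Serpind1, heparin cofactor II, had a log2FC of -0.54 for rMSA livers over saline livers. In AML12 hepatocytes its log2FC was 0.56 for rMSA over vehicle and 0.63 for rMSA + insulin over insulin. The values from AML12 hepatocytes did not pass the test. Groups held 3 libraries, so no outlier test was run on single libraries.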

How the results depend on the processing

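In the livers 20 members were called, and 16 of them (7 that rose, 9 that fell) were called in each setting that tested them, the added fold threshold apart. Requiring an absolute log2FC of at least 1 as well left 8 (5 rose, 3 fell). The share of all tested genes under this added rule was not computed. Leaving out single libraries gave 17 to 21 members in the livers, where 20.3% to 28.7% of all genes were called. It gave 3 in each case for rMSA against vehicle (4 with all libraries), where 4.6% to 5.25% were. For rMSA + insulin against insulin it gave 3 to 8 (5), where 9.46% to 53.9% were. It gave 0 to 7 for insulin against vehicle (0) and 0 for rMSA + insulin against rMSA and for the interaction. The counts of 8 and 7 were those without insulin library 3, where 53.9% and 68.4% of all genes were called. Without a filter on low genes, 38 members were tested in AML12 hepatocytes. Of these, 7, 16 and 1 were called for rMSA against vehicle, rMSA + insulin against insulin and rMSA + insulin against rMSA. In that setting 6.77%, 13.3% and 3.31% of all genes were called. With array weights, estimated gene by gene since the default estimate did not converge, the counts for the same comparisons were 9, 11 and 9 of 12. They were 8 for insulin against vehicle and 2 for the interaction, and 33.3% to 74.5% of all genes were called. When the fit held the compared groups alone, 3 were called for rMSA + insulin against insulin and 5 for rMSA + insulin against rMSA. Of all genes, 2.85% and 42.7% were called there. For rMSA + insulin against rMSA, quantile normalization gave 3 and the fit without insulin libraries 1 and 2 gave 6. Quantile normalization called 17.7% of all tested genes for rMSA + insulin against rMSA. Serpinb6a for rMSA + insulin against insulin turned to -0.022 with median centring. The cause was not tested for any of these.

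With the replicate block, 16 liver members were called, where 19% of all genes were. Serpina1b, Serpina6, Serpinb1a and Serpinb6a were lost. With this block 4 members were called for rMSA against vehicle, with no call changed, where 6.72% of all genes were. For rMSA + insulin against insulin 7 were called, with Serpind1 and Serpinb8 added, where 14.7% of all genes were. In the other comparisons 0 members were called. In no comparison but rMSA against vehicle did every same-numbered pair correlate above 0.1, and the liver samples share only a number. Rescaling without the family, chosen after seeing the data, left the counts at 20, 4, 5, 0, 0 and 0. Of all genes, 28.7%, 7.8%, 17.3%, 0%, 4.05% and 0.0369% were called there, in the same order. Depth is unknown, so it is not known how far low members could have been detected.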
